A study of Mus musculus with 10 samples.

Results

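The genes described here encode the NF-kappaB transcription factor and the proteins that hold it in check: 4 subunit genes (Nfkb1, Nfkb2, Rela and Relb), 5 genes for inhibitors and feedback regulators (Nfkbia, Nfkbib, Nfkbie, Nfkbiz and Tnfaip3) and the ligand gene Tnf. They were taken by symbol, and all 10 were found among the 49671 gene IDs of the table. RNA was sequenced in bulk from FACS-isolated mouse skin epidermal cells that express SmoM2-YFP, an active Smoothened mutant from the Rosa locus that starts basal cell carcinoma, to ask what Survivin does in forming these tumours. There were 5 groups of 2 libraries, and every group carried SmoM2 and a tamoxifen-inducible Cre. The Survivin LOF group had Krt14-CREER, Rosa-SmoM2 and Survivin loss of function, at 6 weeks. The Survivin GOF group had Inv-CREER, Rosa-SmoM2, Krt14rtTA and Survivin gain of function, at 8 weeks. Krt14-CREER Rosa-SmoM2 mice were sampled at 8 weeks and at 6 weeks, and Inv-CREER Rosa-SmoM2 mice at 8 weeks. The weeks stand before TAM in the titles and are read as time after tamoxifen. The Krt14 promoter is active in basal keratinocytes and the involucrin (Inv) promoter in differentiating ones. The descriptions of both Inv controls carry the word pool, of what is not given. No Krt14rtTA is given for those controls, so its effect and that of Survivin GOF cannot be told apart. The age of the mice is not given in the sources used here.

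NF-kappaB factors are dimers of Rel family proteins that bind kappaB sites in DNA. In resting cells they are held in the cytoplasm by inhibitors of the I-kappaB family. TNF, interleukin 1 and microbial ligands activate the I-kappaB kinase, which marks the inhibitor for degradation and frees the dimer. Among the genes then switched on are those of the inhibitors and of A20, the product of Tnfaip3, which ends the signal. In epidermis the pathway takes part in inflammation, in survival and in hair follicle formation.

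Promoter windows were read from RefSeq (GRCm38.p6), 250 bases before to 50 bases after each annotated start, to show the kappaB motif matches near the starts of these genes. Windows were found for 7 of the 10 genes: Nfkb2, Rela, Nfkbia, Nfkbib, Nfkbie, Tnfaip3 and Tnf. Both strands were searched for the kappaB consensus and for the shorter motif GGANTTTCC, which can lie inside the consensus. At least 1 match was found in 6 of the 10 windows of these 7 genes, and 4 of the 7 genes had such a window. All 3 windows of Nfkb2 were among the 6. Its windows 2 and 3 overlap and hold the same GGGACTTTCC, so the windows are not independent. Over all 32851 mouse promoter windows of this length 4.51% held the kappaB consensus, 1.25% held GGANTTTCC and 5.16% held either. The first window of each of those 4 genes is printed 5′ to 3′ in gene direction, with the matched bases in capitals.
Nfkbia, chr12:55492598-55492897, minus strand: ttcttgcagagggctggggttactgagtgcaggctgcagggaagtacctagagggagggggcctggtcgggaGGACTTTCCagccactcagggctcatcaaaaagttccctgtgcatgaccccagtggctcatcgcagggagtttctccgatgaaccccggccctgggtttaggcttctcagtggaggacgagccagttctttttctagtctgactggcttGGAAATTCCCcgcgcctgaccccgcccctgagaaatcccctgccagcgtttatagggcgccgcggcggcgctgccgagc
Tnfaip3, chr10:19015361-19015660, minus strand: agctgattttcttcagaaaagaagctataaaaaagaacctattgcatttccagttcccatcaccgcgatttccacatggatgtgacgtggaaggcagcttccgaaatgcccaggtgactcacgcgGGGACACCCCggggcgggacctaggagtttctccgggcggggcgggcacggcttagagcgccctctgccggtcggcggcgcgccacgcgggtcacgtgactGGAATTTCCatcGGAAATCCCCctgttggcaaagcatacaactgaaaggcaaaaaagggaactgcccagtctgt
Nfkbie, chr17:45555450-45555749, plus strand: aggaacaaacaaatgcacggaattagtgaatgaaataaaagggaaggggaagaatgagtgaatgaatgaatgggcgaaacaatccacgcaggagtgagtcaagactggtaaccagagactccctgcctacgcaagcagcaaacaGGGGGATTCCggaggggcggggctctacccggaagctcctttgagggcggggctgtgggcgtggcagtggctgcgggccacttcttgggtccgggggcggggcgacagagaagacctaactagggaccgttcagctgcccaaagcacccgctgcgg
Nfkb2, chr19:46304487-46304786, plus strand: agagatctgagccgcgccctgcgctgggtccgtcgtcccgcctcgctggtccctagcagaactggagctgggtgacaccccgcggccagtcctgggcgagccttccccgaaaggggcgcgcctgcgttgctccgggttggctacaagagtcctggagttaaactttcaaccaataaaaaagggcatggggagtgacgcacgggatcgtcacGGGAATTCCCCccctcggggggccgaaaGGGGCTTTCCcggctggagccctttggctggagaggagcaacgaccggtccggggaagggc
In Nfkbia, positions counted from 0 at the start base put GGACTTTCC at -178 and GGAAATTCCC at -29, the second holding a match to both motifs. In Tnfaip3, GGAATTTCC at -24 and GGAAATCCCC at -12 lay close together. In Nfkbie the match was GGGGGATTCC at -106, and in Nfkb2 overlapping matches began at -39 and -38 and another at -11. A match describes the letters only and shows no binding.

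Reads recovered from the normalized counts numbered between 7693167 and 8870758 per library, and 3 reads corresponded to between 6.76 and 7.80 normalized counts. Birc5, which encodes Survivin, stood at 382 and 429 in Survivin LOF, at 7277 and 16384 in Survivin GOF, at 1005 and 926 in Krt14 at 8 weeks, at 961 and 1103 in Krt14 at 6 weeks and at 237 and 265 in Inv at 8 weeks. The keratinocyte markers (12 of 12 in the table) summed to between 342331 and 558768 in every library. The female-specific RNA Xist was at 30024 and 59594 in Survivin LOF and at 7589 and 56185 in Survivin GOF, against 51 to 194 in the other 6 libraries. The Y-linked gene Ddx3y was at 1336 and 956 in Survivin LOF and at 3328 and 970 in Survivin GOF, against 2289 to 2909 in the other 6 libraries. All 4 altered libraries thus held RNA of both kinds, and high Xist, which went with the Survivin alleles in all 4, cannot be told apart from them. The 21 immediate early genes that respond to tissue dissociation summed to 27092 and 33013 in Survivin LOF, 37161 and 57501 in Survivin GOF, 81212 and 81111 in Krt14 at 8 weeks, 43189 and 46508 in Krt14 at 6 weeks and 26717 and 22496 in Inv at 8 weeks. Leukocyte markers (18 of 18 in the table) summed to 759 and 1303 in Survivin LOF, 766 and 691 in Survivin GOF, 428 and 667 in Krt14 at 8 weeks, 461 and 310 in Krt14 at 6 weeks and 784 and 743 in Inv at 8 weeks. The macrophage gene Adgre1 was at 0 in 9 of the 10, but Csf1r of the same list stood between 109 and 230 in all 10. Cd74 was at 402 and 751 in Survivin LOF, 441 and 333 in Survivin GOF and 485 and 477 in Inv. It was at 100 and 230 in Krt14 at 8 weeks and at 79 and 55 in Krt14 at 6 weeks. Fibroblast markers summed to 19088 and 19692 in Survivin LOF, 37999 and 15537 in Survivin GOF, 2681 and 2069 in Krt14 at 8 weeks, 2851 and 1386 in Krt14 at 6 weeks and 18279 and 20313 in Inv at 8 weeks. Most of that sum was decorin (Dcn), and the collagen gene Col1a1 stood between 75 and 218 in all libraries. Col1a2, another collagen gene of the list, was at 647 and 1006 in Survivin LOF and at 137 and 19 in Krt14 at 6 weeks. It was at 114 and 97 in Survivin GOF, 40 and 26 in Krt14 at 8 weeks and 237 and 238 in Inv. Vim was at 253 and 494 in Survivin LOF, 328 and 723 in Survivin GOF and between 86 and 305 elsewhere. The remaining genes of the list stood between 0 and 103. Melanocyte markers summed to 3175 and 3016 in Survivin LOF, 2075 and 1880 in Survivin GOF, 1374 and 1538 in Krt14 at 8 weeks, 942 and 901 in Krt14 at 6 weeks and 2407 and 2505 in Inv at 8 weeks. Endothelial markers reached 1439 in Survivin GOF replicate 2 and lay between 127 and 357 in the other 9 libraries. In bulk samples fewer cells of a type and less RNA per cell cannot be told apart.

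All 10 genes passed the filter (at least 10 normalized counts in at least 2 libraries), as did 21995 genes in all. All 10 also passed a moderated F test for any difference among the 5 groups (limma, adjusted p from 1.41e-05 for Tnfaip3 to 0.022 for Rela), where 52.1% of all genes tested did. Per kilobase of annotated exon, mean levels over the 10 libraries were 1360 normalized counts for Nfkbia, 368 for Nfkbiz, 259 for Rela, 233 for Nfkb1, 203 for Nfkbib, 194 for Nfkb2, 144 for Relb, 126 for Tnfaip3, 43.0 for Tnf and 35.2 for Nfkbie. The inhibitor transcript Nfkbia was thus the most abundant per length, and the 4 subunit genes lay close together. Exon length counts every annotated isoform, so a gene with a long rare isoform, such as Nfkb1 with 12061 exonic bases, comes out low.

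**Figure D1:**
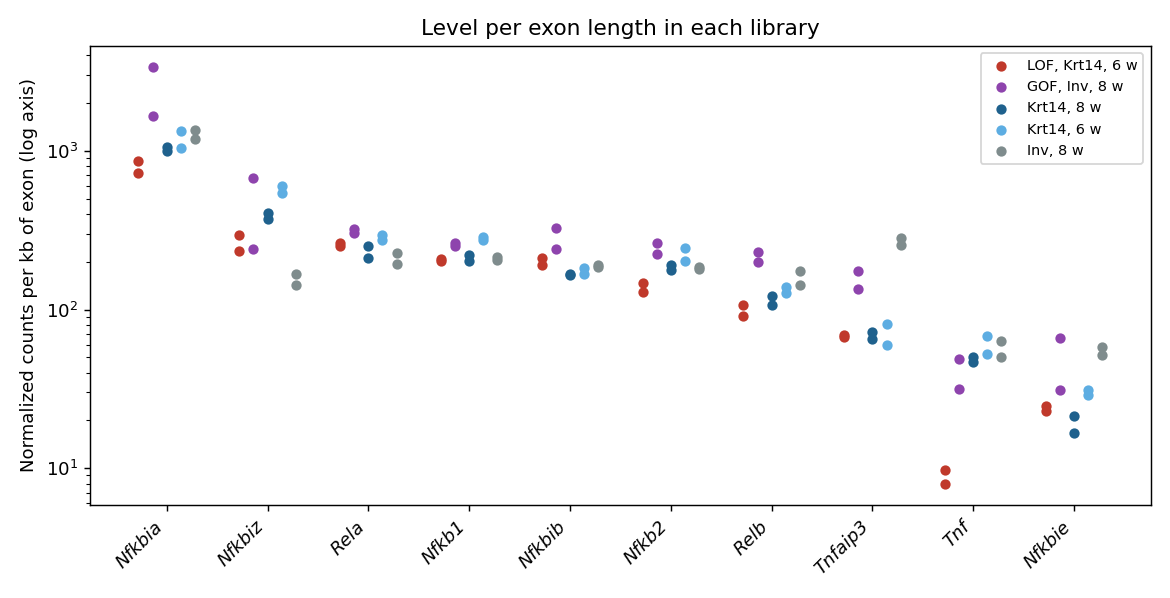
Normalized counts per kilobase of exon (log axis) for each gene, 1 point per library, coloured by group. Nfkbia lies above every other gene on average, at 1360, and Nfkbie and Tnf lie lowest, at 35.2 and 43.0.

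Of the subunit genes, Nfkb1 (ENSMUSG00000028163, chromosome 3, 135584655 to 135691547, minus strand) encodes p105, which is processed to the DNA-binding subunit p50. It was at 2451 and 2494 in Survivin LOF, 3018 and 3157 in Survivin GOF, 2457 and 2673 in Krt14 at 8 weeks, 3452 and 3324 in Krt14 at 6 weeks and 2592 and 2468 in Inv at 8 weeks. Both Krt14 libraries at 6 weeks stood above all others, both GOF libraries came next, and the remaining 3 groups overlapped. Nfkb2 (ENSMUSG00000025225, chromosome 19, 46304320 to 46312385, plus strand) encodes p100, the precursor of p52 in the non-canonical branch. It was at 669 and 587 in Survivin LOF, 1212 and 1025 in Survivin GOF, 815 and 880 in Krt14 at 8 weeks, 1116 and 925 in Krt14 at 6 weeks and 854 and 829 in Inv at 8 weeks. The LOF libraries were the lowest and did not overlap with any other group. Psd, on the opposite strand, shares 299 bases of Nfkb2 exons, and the strand setting of the counting is not given. Psd stood at 236 and 390 in Survivin GOF and between 102 and 148 in the other groups, so part of the Nfkb2 value in GOF is uncertain.

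Rela (ENSMUSG00000024927, chromosome 19, 5637483 to 5648130, plus strand) encodes p65, the subunit that activates transcription in the canonical dimer. It was at 769 and 803 in Survivin LOF, 929 and 988 in Survivin GOF, 778 and 648 in Krt14 at 8 weeks, 841 and 907 in Krt14 at 6 weeks and 694 and 599 in Inv at 8 weeks. The GOF libraries were the highest, with no overlap. Relb (ENSMUSG00000002983, chromosome 7, 19606217 to 19629438, minus strand) encodes the partner of p52. It was at 414 and 354 in Survivin LOF, 772 and 890 in Survivin GOF, 475 and 414 in Krt14 at 8 weeks, 540 and 491 in Krt14 at 6 weeks and 681 and 554 in Inv at 8 weeks. Again GOF was highest, and here LOF was lowest, although LOF and Krt14 at 8 weeks met at 414. Between the lowest and the highest library Nfkb1 differed 1.41-fold, Rela 1.65-fold, Nfkb2 2.06-fold and Relb 2.51-fold.

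Of the classical inhibitors, Nfkbia and Nfkbie covered a wider range than any subunit gene (4.65-fold and 3.92-fold between the lowest and the highest library), and Nfkbib covered 1.99-fold. Nfkbia (ENSMUSG00000021025, chromosome 12, 55489410 to 55492647, minus strand) encodes I-kappaB-alpha, which is quickly resynthesized after activation. It was at 1175 and 1392 in Survivin LOF, 2677 and 5460 in Survivin GOF, 1692 and 1604 in Krt14 at 8 weeks, 1670 and 2136 in Krt14 at 6 weeks and 2180 and 1917 in Inv at 8 weeks. GOF replicate 2 held 2.04 times as much as GOF replicate 1, and both stood above every other library. Nfkbib (ENSMUSG00000030595, chromosome 7, 28758251 to 28767512, minus strand) encodes I-kappaB-beta. It was at 412 and 460 in Survivin LOF, 520 and 713 in Survivin GOF, 359 and 365 in Krt14 at 8 weeks, 361 and 398 in Krt14 at 6 weeks and 403 and 416 in Inv at 8 weeks. Only in GOF did both libraries exceed those of all other groups. Ccer2, on the opposite strand, shares 314 bases (14.5%) of Nfkbib exons and stood at 186 and 892 in Survivin GOF, so part of the Nfkbib value in GOF replicate 2 is uncertain. Nfkbie (ENSMUSG00000023947, chromosome 17, 45555703 to 45563169, plus strand) encodes I-kappaB-epsilon and rested on 20 to 83 reads per library. It was at 75 and 70 in Survivin LOF, 200 and 94 in Survivin GOF, 65 and 51 in Krt14 at 8 weeks, 94 and 88 in Krt14 at 6 weeks and 157 and 177 in Inv at 8 weeks. Both Inv libraries and GOF replicate 1 were high and the 6 Krt14-driven libraries low, while GOF replicate 2 matched the highest of those, at 94.

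Nfkbiz (ENSMUSG00000035356, chromosome 16, 55811375 to 55838899, minus strand) encodes I-kappaB-zeta, a nuclear member of the family that switches on secondary response genes and, in keratinocytes, acts downstream of interleukin 17. It was at 1180 and 1477 in Survivin LOF, 1217 and 3385 in Survivin GOF, 1863 and 2043 in Krt14 at 8 weeks, 2726 and 2999 in Krt14 at 6 weeks and 840 and 721 in Inv at 8 weeks. The GOF libraries lay 2.78-fold apart, where all 10 libraries ranged from 721 to 3385. The other 4 groups did not overlap: Krt14 at 6 weeks was highest, then Krt14 at 8 weeks, then LOF, then Inv. Tnfaip3 (ENSMUSG00000019850, chromosome 10, 19000910 to 19015657, minus strand) encodes A20, a ubiquitin-editing enzyme that shuts off TNF and Toll-like receptor signalling. It was at 486 and 501 in Survivin LOF, 1258 and 978 in Survivin GOF, 470 and 523 in Krt14 at 8 weeks, 583 and 434 in Krt14 at 6 weeks and 2048 and 1854 in Inv at 8 weeks. The order was Inv, then GOF, then the 3 Krt14-driven groups, which overlapped (Krt14 at 8 weeks lay 3.93-fold below Inv). Tnf (ENSMUSG00000024401, chromosome 17, 35199381 to 35202007, minus strand) encodes the cytokine that both triggers the pathway and is induced by it, and was low, with 5 to 46 reads per library. It was at 13 and 16 in Survivin LOF, 80 and 52 in Survivin GOF, 77 and 82 in Krt14 at 8 weeks, 86 and 112 in Krt14 at 6 weeks and 82 and 104 in Inv at 8 weeks. Only the LOF libraries stood apart, below all the others, and near the level of 3 reads.

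**Figure D2:**
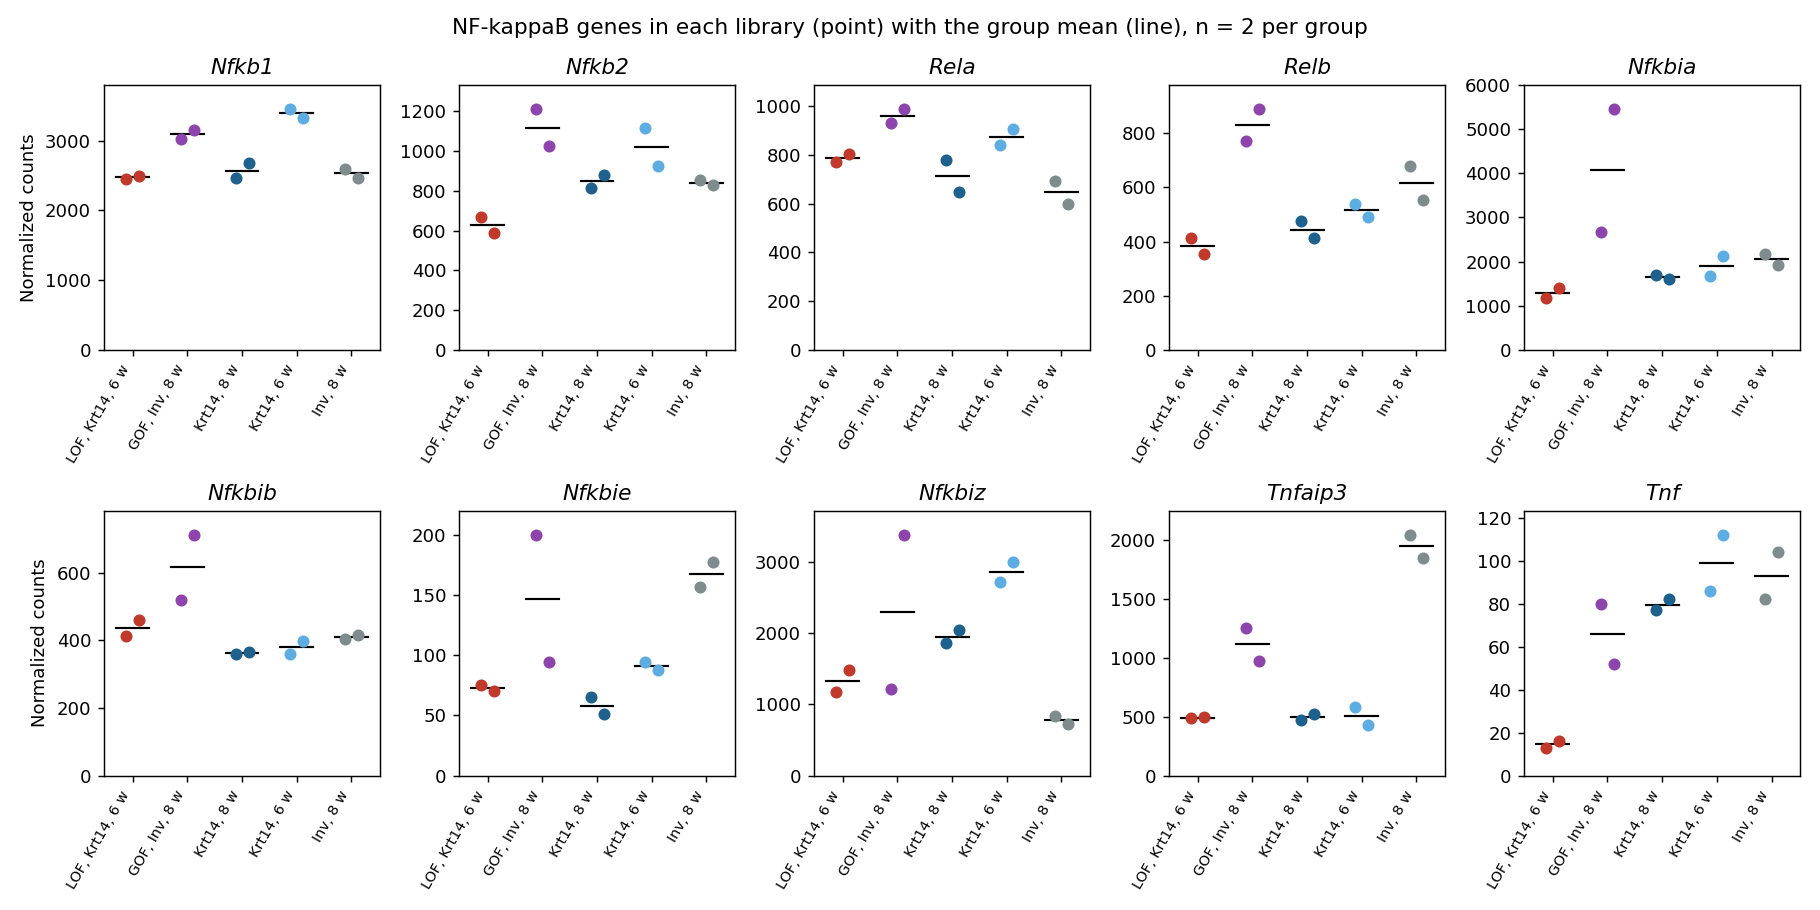
Normalized counts of each gene, 1 point per library (2 per group), with the group mean as a line, on axes that start at 0. Tnf is low in Survivin LOF (13 and 16), Tnfaip3 is high in Inv at 8 weeks (2048 and 1854), and the GOF libraries lie far apart for Nfkbia (2677 and 5460) and Nfkbiz (1217 and 3385).

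With Survivin LOF, compared with Krt14 at 6 weeks, 4 of the 10 genes fell and 0 rose: the p105 and p100 genes Nfkb1 and Nfkb2, Nfkbiz and Tnf. Among all genes tested 30.9% were called, 19.5% higher and 11.4% lower. Tnf fell most, to a mean of 14.5 ± 2.12 (SD, n = 2) against 99 ± 18.4, 6.83-fold lower (log2 change -2.68, SE 0.33, adjusted p = 0.000192). Nfkbiz was 2.15-fold lower (-1.11, SE 0.34, adjusted p = 0.0299), Nfkb2 1.63-fold lower (-0.70, SE 0.14, adjusted p = 0.00333) and Nfkb1 1.37-fold lower (-0.45, SE 0.09, adjusted p = 0.00338). Relb (-0.43, 95% interval -0.78 to -0.08, adjusted p = 0.0626) and Nfkbia (-0.56, -1.13 to 0.01, adjusted p = 0.124) did not pass, nor did Rela (-0.15), Nfkbie (-0.32), Nfkbib (0.20) and Tnfaip3 (-0.03, -0.40 to 0.34). The median log2 change of the 10 genes was -0.44, and that of all genes tested was 0.16, a shift that median-of-ratios rescaling moved to 0.02. The Nfkbiz call was lost when any of the 8 libraries outside GOF was left out (log2 change from -1.28 to -0.95 with 1 library left out).

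The same comparison changed many other genes of the pathway. Of 139 listed genes 123 were tested, and 23 rose and 32 fell, 55 in all. Of the 21995 genes tested 30.9% were called, 19.5% higher and 11.4% lower. Without LOF replicate 2 or Krt14 replicate 2 at 6 weeks fewer were called, both of these pathway genes and of all genes tested. Among the pathway's known target genes 3 of 36 tested rose and 14 fell (median -0.30). The prostaglandin synthase gene Ptgs2 stood at 70 and 140 in LOF against 2558 and 3213 in Krt14 at 6 weeks (log2 change -4.84, SE 0.29), the collagenase gene Mmp13 at 35 and 48 against 653 and 693 (-4.00), and the chemokine gene Cxcl16 at 149 and 170 against 1006 and 829 (-2.51, SE 0.17). Bcl3, a nuclear I-kappaB that works with p50 and p52, stood at 8 and 28 against 466 and 535 (-4.95, SE 0.48). Its lower LOF value lay near the level of 3 reads, so the size of its change is uncertain. Map3k14, the kinase NIK of the non-canonical branch, was at 67 and 84 against 165 and 251 (-1.43, adjusted p = 0.0056). Receptor genes moved both ways, 7 of 18 higher and 4 lower: the TWEAK receptor gene Tnfrsf12a was at 268 and 251 against 896 and 902 (-1.79), whereas Tnfrsf19, a TNF receptor family member of hair follicles, was at 4165 and 2997 against 495 and 380 (3.02) and the flagellin receptor gene Tlr5 at 615 and 607 against 165 and 114 (2.15). Among adaptors and kinases 8 of 34 rose and 6 fell: the ubiquitin ligase gene Birc2 was at 1170 and 1229 against 514 and 553 and rose (1.17, SE 0.11). Birc3, the related ligase gene, was 409 and 440 against 629 and 558 and fell (-0.48, adjusted p = 0.0307). Among other regulators 2 of 24 rose and 6 fell, and the deubiquitinase gene Cyld, at 2074 and 2091 against 1020 and 1108, was 1 of the 2 that rose (0.97, SE 0.10). The interleukin 1 receptor antagonist gene Il1rn was at 285 and 368 against 772 and 677 (-1.16), and the ectodysplasin gene Eda at 189 and 334 against 146 and 119 (0.93, adjusted p = 0.0413). Of the I-kappaB kinase genes, the scaffold gene Ikbkg rose (0.53, SE 0.11), while the kinases Chuk (0.05) and Ikbkb (0.17) did not pass, and neither did Rel (0.18) and the TNF receptor gene Tnfrsf1a (-0.20). The immediate early sum was lower, and the fibroblast, melanocyte and leukocyte sums and Xist higher, in both LOF libraries than in both Krt14 libraries at 6 weeks, and their part in the changes was not tested except with Xist as a covariate. With log2 Xist as a covariate the calls of Nfkb1 (-0.80), Nfkb2 (-0.26) and Tnf (-1.25) were lost, and Nfkbiz (-4.91) and Nfkbia (-2.92) were lower. In that fit the slope on Xist rests on the difference between replicates, mainly those of GOF.

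With Survivin GOF, compared with Inv at 8 weeks, 4 of the 10 genes rose (Rela, Nfkbia, Nfkbib and Nfkbiz) and Tnfaip3 fell. Among all genes tested 15.3% were called, 6.87% higher and 8.4% lower. Nfkbiz was 2.95-fold higher (log2 change 1.38, SE 0.34, adjusted p = 0.0207), Nfkbia 1.99-fold (0.90, SE 0.26, adjusted p = 0.0379), Nfkbib 1.51-fold (0.57, SE 0.17, adjusted p = 0.0416) and Rela 1.48-fold (0.57, SE 0.13, adjusted p = 0.0159). Tnfaip3 averaged 1118 ± 198 in GOF and 1951 ± 137 in Inv (SD, n = 2 each), 1.75-fold lower (-0.81, SE 0.17, adjusted p = 0.00905). Both GOF libraries of Nfkb1 (0.29, 95% interval 0.09 to 0.49, adjusted p = 0.0547), Nfkb2 (0.41, adjusted p = 0.0724) and Relb (0.43, adjusted p = 0.0921) stood above both Inv libraries, but these did not pass. Nfkbie (-0.28, -1.02 to 0.46) and Tnf (-0.51, -1.24 to 0.22) did not pass either. The median log2 change of the 10 genes was 0.42, against -0.01 for all genes tested.

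The sizes of Nfkbia, Nfkbib and Nfkbiz rested on GOF replicate 2, while Rela (0.53 without GOF replicate 2 and 0.61 without replicate 1) and Tnfaip3 (-0.63 and -0.99) passed without either. Without GOF replicate 2 the log2 change of Nfkbia was 0.39 (adjusted p = 0.158), of Nfkbib 0.34 (adjusted p = 0.2) and of Nfkbiz 0.64 (adjusted p = 0.0202). Without GOF replicate 1 they were 1.42, 0.80 and 2.12. Of 22 alternatives each, Nfkbiz kept its call under 16, Nfkbia under 11 and Nfkbib under 7. The Nfkbib call was lost with median-of-ratios rescaling and with array weights, among others. GOF replicate 2 was also the library with more Birc5 (16384 against 7277 in replicate 1), more Xist (56185 against 7589), a larger immediate early sum (57501 against 37161) and more endothelial marker RNA (1439 against 357). The part of these in the values was not tested, except with Xist as a covariate. The number of changed genes among the 10 was 1 without Inv replicate 1 and 0 without Inv replicate 2, 3 without either LOF library or either Krt14 library at 8 weeks, and 7 without GOF replicate 1. It was 0 in a fit to these 4 libraries alone, in which all genes called numbered 258 against 3359, and 0 with the Xist covariate.

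Among the other pathway genes 19 of 123 rose with GOF and 1 fell. The 20 in all were a share close to the 15.3% of all genes called. By direction the split was unlike that of all genes, of which 6.87% were called higher and 8.4% lower. This difference in direction was not tested. The gene that fell was Tlr5, at 395 and 234 against 676 and 687 (log2 change -1.16, adjusted p = 0.00983). The scaffold gene Card10 reached 655 and 817 in GOF, against 237 and 192 in Inv (1.77, SE 0.18, adjusted p = 0.000128), Map3k14 at 94 and 138 against 37 and 41 (1.52, SE 0.31) and Tnfrsf12a at 306 and 286 against 176 and 113 (1.06, SE 0.20). The TNF receptor gene Tnfrsf1a rose as well, with 1835 and 2122 against 1379 and 1337 (0.54, SE 0.11). The 4 target genes of 36 that rose, named here after their values were seen, were Cflar, which blocks caspase 8 (0.48), the ferritin gene Fth1 (0.50), the immediate early gene Ier3 (1.31) and the syndecan gene Sdc4 (0.69). Ptgs2, at 32 and 39 against 30 and 25, and Mmp13, at 17 and 42 against 19 and 23, did not pass. None of the 11 ligand genes tested passed, and 1 of them, Tnfsf18, had an unadjusted p under 0.05 by the same limma test. Tnfsf18 averaged 0 in GOF and 3 in Inv, which is below the level of 3 reads. Over all lists the count was 6 without Inv replicate 1, 3 without Inv replicate 2 and 44 without GOF replicate 1, and over all genes tested it was 1139, 943 and 6249 under the same omissions, against 3359.

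Between the drivers, Krt14 compared with Inv at 8 weeks, 3 of the 5 inhibitor and feedback genes passed, Nfkbiz higher and Tnfaip3 and Nfkbie lower in Krt14, and 0 of the 4 subunit genes did. The difference between these groups of genes was not tested, and Relb had an unadjusted limma p of 0.013. Among all genes tested 19.6% were called, 8.18% higher and 11.4% lower. Tnfaip3 averaged 496.5 ± 37.5 in Krt14 and 1951 ± 137 in Inv (SD, n = 2 each), 3.93-fold lower (log2 change -1.97, SE 0.17, adjusted p = 1.95e-05), and passed under all 22 alternatives tried (adjusted p from 2.14e-07 to 0.00113). Nfkbie was 2.88-fold lower (-1.52, SE 0.33, adjusted p = 0.00914) and Nfkbiz 2.50-fold higher (1.32, SE 0.34, adjusted p = 0.0195). The Nfkbie call was lost without Krt14 replicate 2 at 8 weeks and without either Inv library, and the Nfkbiz call without any 1 of the 4 libraries compared, so that 1 gene was left without Krt14 replicate 2 or either Inv library. The intervals were narrow for Nfkb1 (0.02, 95% interval -0.18 to 0.22), Nfkb2 (0.01, -0.29 to 0.31) and Rela (0.14, -0.15 to 0.43), and Relb was at -0.47 (-0.82 to -0.12, adjusted p = 0.0612). Nfkbia (-0.31), Nfkbib (-0.18) and Tnf (-0.21) did not pass.

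In this comparison 20 of the 123 other pathway genes were higher and 25 lower, 45 in all. Of the 21995 genes tested 19.6% were called, 8.18% higher and 11.4% lower. Without any 1 of the 4 libraries compared fewer were called, both of these pathway genes and of all genes tested. Ptgs2 differed most, at 2115 and 2076 in Krt14 against 30 and 25 in Inv (log2 change 6.21, SE 0.29), followed on the higher side among the named genes by Mmp13 at 345 and 309 against 19 and 23 (3.90) and Il1rn at 435 and 477 against 94 and 86 (2.33). Tnfrsf12a (2.00), Cxcl16 (1.95), Map3k14 (1.90) and Card10 (1.34) were also higher. On the other side stood the death ligand gene Tnfsf10, at 10 and 6 in Krt14 against 187 and 179 in Inv (-4.39, SE 0.77). Its Krt14 values lay near the level of 3 reads, so the size of its change is uncertain. Tnfrsf19, at 799 and 635 against 4549 and 4383 (-2.65), was lower as well. Among adaptors and kinases 2 of 34 were higher and 5 lower, with Birc3 at 348 and 424 against 1065 and 1132 (-1.51, SE 0.15) and Birc2 at 704 and 776 against 1361 and 1367 (-0.88). Among other regulators 4 of 24 were higher and 3 lower. Cyld was at 1062 and 1156 against 1948 and 1877 (-0.79) and the A20-binding Tnip1 at 697 and 648 against 1168 and 1050 (-0.72, adjusted p = 0.00455), while Tnip2 and Zc3h12a, named here after their values were seen, were higher (0.46 and 1.34). Ikbkg was lower (-0.40, adjusted p = 0.0241), while Chuk (-0.10), Ikbkb (-0.18) and Rel (-0.17) did not pass. The immediate early sum was 81212 and 81111 in Krt14 against 26717 and 22496 in Inv, the fibroblast sum 2681 and 2069 against 18279 and 20313, and the melanocyte sum 1374 and 1538 against 2407 and 2505. Their part in these differences was not tested.

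In Krt14 at 8 weeks compared with 6 weeks, 1 of the 10 genes changed, where 4.88% of all genes tested were called (4.02% higher and 0.855% lower). Nfkb1 averaged 2565 ± 153 at 8 weeks and 3388 ± 90.5 at 6 weeks (SD, n = 2 each), 1.32-fold lower (log2 change -0.40, SE 0.09, adjusted p = 0.0334), a call that was lost when any library outside GOF was left out (adjusted p up to 0.207 over the alternatives). All 9 other genes had negative log2 changes (from -0.65 for Nfkbie to -0.02 for Tnfaip3) and did not pass, and Rela alone had an unadjusted p under 0.05 among them. The median of the 10 was -0.28, and that of all genes tested 0.14 (0.00 after median-of-ratios rescaling). Of the other pathway genes 2 rose and 8 fell (10 in all, 0 without either library at 8 weeks, and between 0 and 23 over all libraries left out), among them Birc2 (0.47, adjusted p = 0.0361), Birc3 (-0.62, adjusted p = 0.0402) and Cxcl16 (-0.68, adjusted p = 0.0456).

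With Survivin GOF compared with Krt14 at 8 weeks, 7 of the 10 genes were higher and 0 lower. Among all genes tested 27.7% were called, 15.2% higher and 12.5% lower. This comparison shares libraries with both other comparisons at 8 weeks, and it differs in driver and in Krt14rtTA as well as in Survivin. Xist and the fibroblast, melanocyte, leukocyte and endothelial sums were higher in both GOF libraries than in both Krt14 libraries at 8 weeks. The immediate early and keratinocyte sums were lower. The part of these in the changes was not tested, except with Xist as a covariate. Nfkbie was 2.53-fold higher (log2 change 1.24, SE 0.33, adjusted p = 0.0182), Nfkbia 2.47-fold (1.21, SE 0.26, adjusted p = 0.0055), Tnfaip3 2.25-fold (1.16, SE 0.17, adjusted p = 0.000579) and Relb 1.87-fold (0.90, SE 0.16, adjusted p = 0.00192). Nfkbib (0.75, adjusted p = 0.00709), Rela (0.43, adjusted p = 0.0326) and Nfkb1 (0.27, adjusted p = 0.0469) were higher by smaller amounts. The Nfkb1 call was kept under 7 of 22 alternatives, and was lost with array weights and with the replicate block, among others. Nfkb2 (0.40, 95% interval 0.09 to 0.70, adjusted p = 0.054), Nfkbiz (0.06, -0.70 to 0.81) and Tnf (-0.30, -1.03 to 0.44) did not pass. Nfkbiz was 0.79 without GOF replicate 1 and -0.68 without GOF replicate 2, and passed in both fits, so its direction rests on which GOF library is used. The count was 4 without either Krt14 library, 5 after median-of-ratios rescaling (Rela and Nfkb1 lost) and 2 (Relb and Tnfaip3) in a fit to these 4 libraries alone. The median log2 change of the 10 was 0.59, against 0.09 for all genes tested.

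Of the other pathway genes 34 of 123 were higher and 13 lower in GOF than in Krt14 at 8 weeks, 47 in all. Of the 21995 genes tested 27.7% were called, 15.2% higher and 12.5% lower. Without either Krt14 library fewer were called, both of these pathway genes and of all genes tested. Among adaptors and kinases 12 of 34 were higher and 0 lower. Birc3 stood at 1253 and 1033 in GOF against 348 and 424 in Krt14 (log2 change 1.56, SE 0.15), Birc2 at 1503 and 1534 against 704 and 776 (1.04), Cyld at 2205 and 2122 against 1062 and 1156 (0.96), Tnip1 at 1268 and 1347 against 697 and 648 (0.96) and Tnfsf10 at 236 and 60 against 10 and 6 (3.78). The Tnfsf10 values in Krt14 lay near the level of 3 reads, so the size of its change is uncertain. Rel, the remaining Rel family gene, was at 2443 and 3071 against 2080 and 1977 (0.43, adjusted p = 0.0286). On the lower side Ptgs2 was at 32 and 39 against 2115 and 2076 (-5.85), Mmp13 at 17 and 42 against 345 and 309 (-3.56), Il1rn at 94 and 58 against 435 and 477 (-2.61) and Cxcl16 at 186 and 211 against 544 and 597 (-1.52). Target genes thus went both ways, with 10 of 36 higher and 7 lower.

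**Figure D3:**
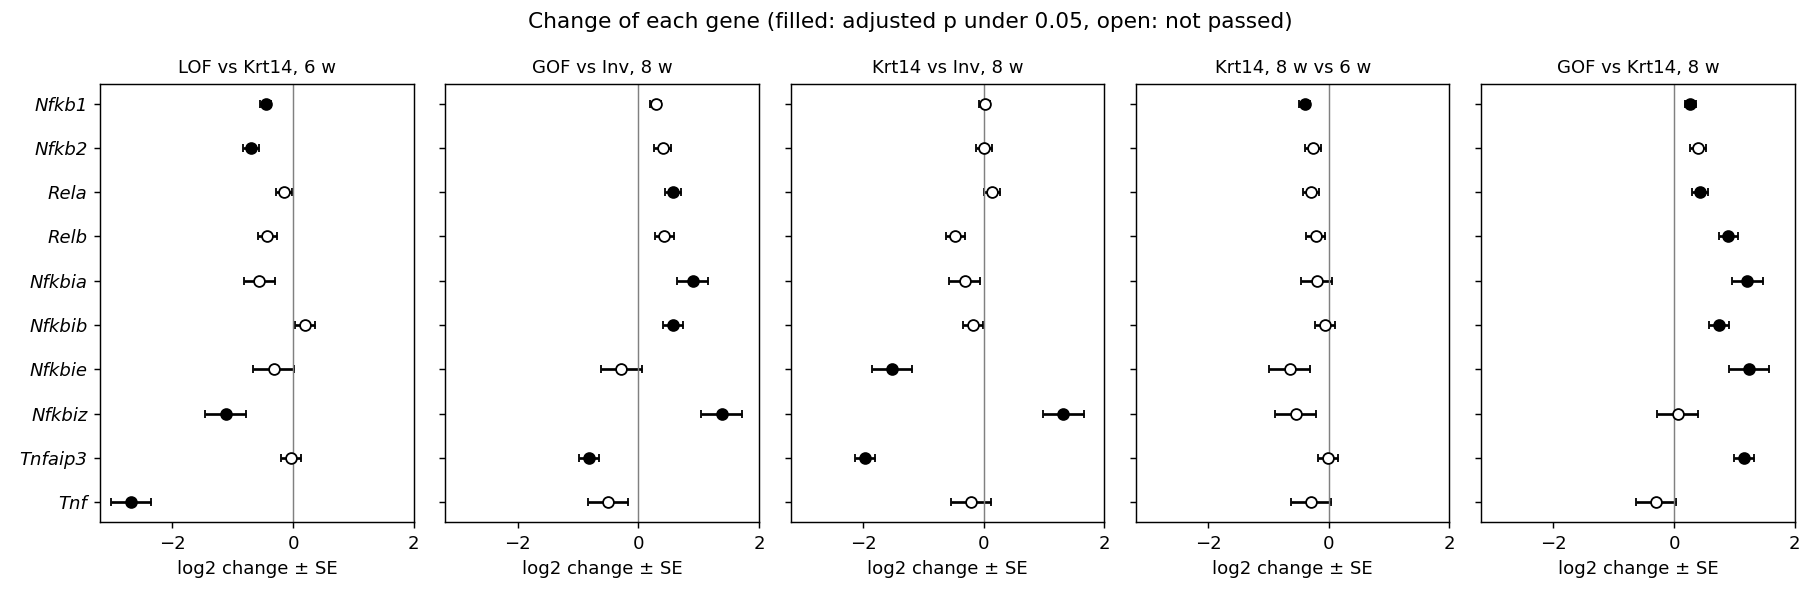
Log2 change with its standard error for each gene in the 5 comparisons (n = 2 libraries per group), filled where the adjusted p was under 0.05. Filled points lie on the lower side with Survivin LOF (Nfkb1, Nfkb2, Nfkbiz and Tnf) and on the higher side in GOF against Krt14 (7 genes), and Tnfaip3 is lower in GOF and in Krt14 than in Inv.

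**Figure D4:**
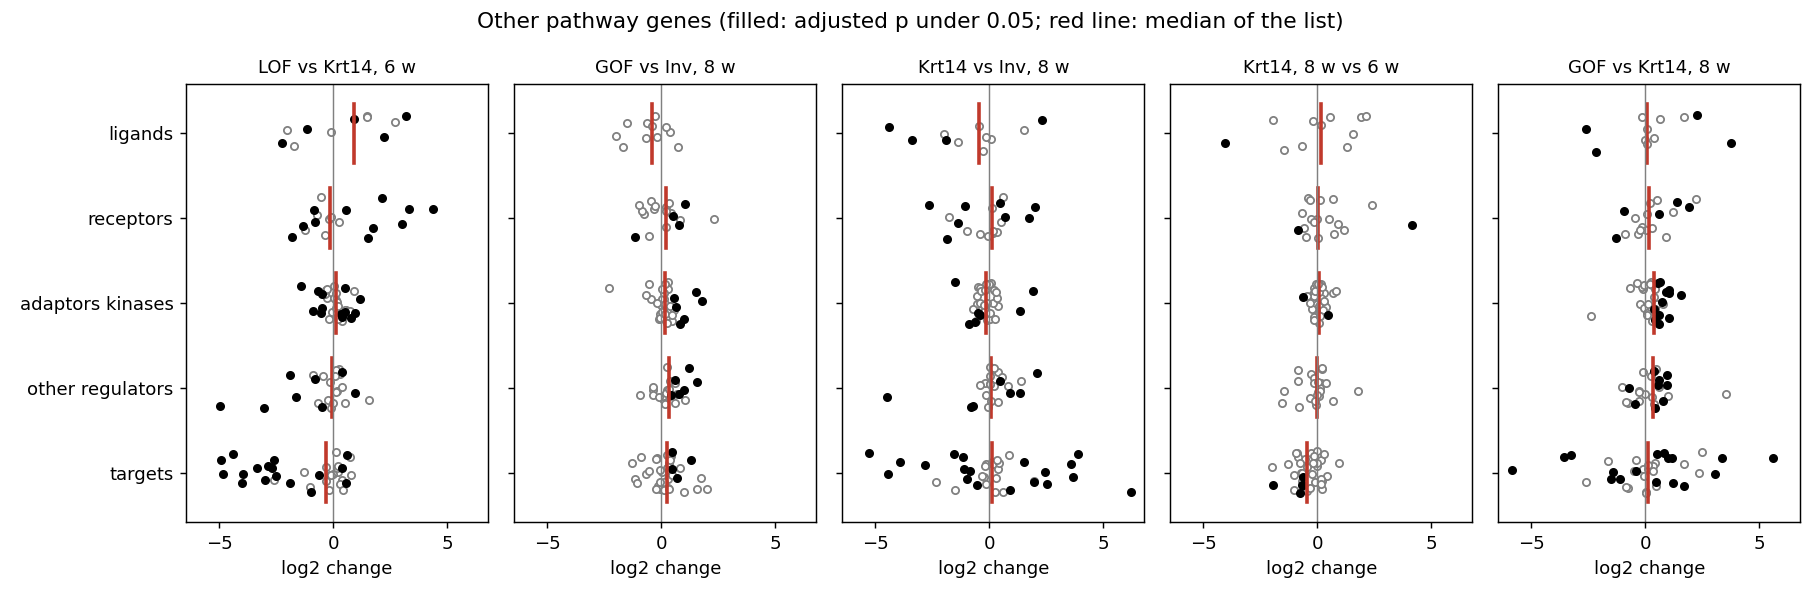
Log2 change of the other tested pathway genes in the 5 comparisons, by role, 1 point per gene, filled where the adjusted p was under 0.05, with the median of each list as a red line. With Survivin LOF 14 of 36 target genes lie filled on the lower side and 3 on the higher side, and with GOF against Inv 19 of the 20 filled points over all lists are on the higher side.

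Across the 10 libraries the genes did not move as 1 block. Over the 45 pairs Pearson's r of log2 values ran from -0.625 (Nfkbiz with Tnfaip3) to 0.882 (Relb with Nfkbia), with a median of 0.408. Nfkbie and Tnfaip3, both high in Inv, had r = 0.861, and Nfkbia and Nfkbib, both highest in GOF, had r = 0.806. The libraries share groups in pairs, so these values describe the group pattern and carry no test. Tnf had the widest range of group means on the log2 scale (2.68). Among the 5 genes whose log2 values followed it most closely over the 10 libraries, out of 12001 with a mean of at least 50, were the proteasome subunit gene Psmd1 (r = 0.983) and the pseudogenes Rpl14-ps1 (0.965) and Pcna-ps2 (0.961). Each of these 3 was lowest in Survivin LOF: Psmd1 stood at 3026 and 3040 there against 3723 to 4376 in the other 8 libraries. They were picked for following Tnf, which stood apart only in LOF, so this largely follows from how they were chosen.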

How the data were processed

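Bulk polyA RNA was sequenced from 10 libraries of sorted SmoM2-YFP epidermal cells. Per the submitters' processing notes, STAR was used for alignment, HTSeq for counting and GRCm38 (mm10) as the genome; their versions, the strand setting and the annotation release were not given. The values deposited by the authors are a normalized score, not raw counts: whole numbers whose columns sum to between 20011195 and 20014054, in each library 99.3% to 99.9% of the values below 20000 were exact multiples (rounded up) of what 1 read was worth there, which gave back the reads. Coordinates and exon lengths are from GENCODE M21, which held 49326 of the 49671 gene IDs. Promoters are from RefSeq.

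Values were taken to log2 after adding 1, for genes with at least 10 in at least 2 libraries, and all 5 groups entered the same limma fit (limma 3.58.1, R 4.3.3, eBayes with an intensity trend, 5 residual degrees of freedom, two-sided). Benjamini-Hochberg adjustment ran over all 21995 genes tested, and genes were called at an adjusted p of 0.05. For a single gene, the smallest p that an exact permutation of 2 and 2 libraries can give is 0.333. The labels do not say that libraries came from separate animals or batches, so p-values measure only the spread between libraries. The model was run on simulated counts with the same dispersion for every gene, which does not test the spread between these libraries. Alternatives covered pseudocount, filter, scaling, model, weights, voom on recovered reads, an Xist covariate, a replicate block, a stricter threshold and each library left out.

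The genes and the lists were chosen with earlier results of these data known. Named pathway genes were the 3 with the smallest F test p in each list of ligands, receptors, adaptors and kinases, other regulators and targets (mean of at least 50), with Rel, Chuk, Ikbkb, Ikbkg, Map3k14 and Tnfrsf1a added. The 5 genes most like Tnf were sought outside predicted models, and some of them are not reported here. The floor of 3 reads covers counting error alone, since PCR copies were not separated by molecular identifiers.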

Additional observations from a re-analysis of the deposited data

How the results depend on the processing

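Over 22 alternatives for each of 50 changes (10 genes in 5 comparisons), 941 kept their direction and their side of the threshold, 101 lost a call, 31 gained one, 8 had the opposite sign where the main value or the alternative passed, and 19 had the opposite sign where neither passed. Of the values that passed in either fit, the Xist covariate turned the sign in GOF against Inv for Nfkbia (-0.88), Nfkbib (-0.27), Nfkbiz (-1.49) and Tlr5 (0.0705), and in GOF against Krt14 for Nfkb1 (-0.0312), Nfkbia (-0.86), Nfkbib (-0.22), Nfkbiz (-3.27) and Rel (-0.38). Where neither passed, it turned Nfkbib (-0.91), Nfkbie (2.59) and Tnfaip3 (0.34) in LOF, Nfkbie (1.93) and Tnf (0.58) in GOF against Inv, Nfkb2 (-0.0428) in Krt14 against Inv and Tnf (0.96) in GOF against Krt14. The other 12 such values lay between -0.0460 and 0.26, and among the named pathway genes 46 of 2310 values turned where neither passed. Nfkbiz in GOF against Krt14 was -0.68 without GOF replicate 2 and 0.79 without GOF replicate 1. The count of changed genes among the 10 was 2 in LOF with the Xist covariate (main 4). In GOF against Inv (main 5) it was 2 with no filter, 0 in a fit to the groups compared, 0 with Xist and 1 at an adjusted p of 0.01. In Krt14 at 8 against 6 weeks (main 1) it was 0 in the groups compared, 2 with Xist and 0 at 0.01. In GOF against Krt14 (main 7) it was 2, 1 and 4 under the same 3 settings. Of the other pathway genes LOF changed 13 with Xist and 32 at 0.01 (main 55), GOF against Inv 1 in the groups compared, 0 with Xist and 8 at 0.01 (main 20), and Krt14 against Inv 25 at 0.01 (main 45). Krt14 at 8 against 6 weeks (main 10) changed 4 with no filter, 6 with quantile normalization, 0 in the groups compared, 22 with array weights, 20 with Xist and 1 at 0.01, and GOF against Krt14 (main 47) changed 25, 6 and 28 in the groups compared, with Xist and at 0.01. The cause was not tested.

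With 1 library left out, the count among the 10 ranged from 3 to 6 in LOF, 0 to 7 in GOF against Inv, 1 to 4 in Krt14 against Inv, 0 to 2 in Krt14 at 8 against 6 weeks, 4 to 7 in GOF against Krt14 and 7 to 10 in the F test. For the other pathway genes the ranges were 29 to 64, 3 to 44, 21 to 59, 0 to 23 and 25 to 57. Over all tested genes the ranges were 3772 to 8532 (main 6805), 943 to 6249 (3359), 1910 to 6029 (4309), 77 to 2487 (1073) and 3302 to 7328 (6098), and over the other settings 941 to 7838, 40 to 3925, 2157 to 6998, 8 to 2644 and 202 to 6493. With the sample number of the titles as a replicate block, the counts were 4, 5, 3, 1 and 7, but in GOF against Krt14 Nfkb2 passed (adjusted p = 0.0454) and Nfkb1 did not (0.0611). Same-numbered libraries did not deviate together over all genes tested (r from -0.0542 to 0.0407 over 10 pairs of groups). This check cannot see a shared batch that is weak or that does not follow the sample numbers. Median-of-ratios rescaling put 49.0% of LOF calls higher, against 63.1%, and 53.6% against 82.5% in Krt14 at 8 against 6 weeks. Tnf and Nfkbie rest on few reads, so small differences in them were not detectable at this depth.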
